A study of Homo sapiens with 6 samples.

Results

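The transcripts described here encode 10 secreted or receptor proteins that control blood vessel growth and tone. They were taken as the rows of the deposited count and FPKM tables whose Ensembl identifiers carry the symbols VEGFA, VEGFB, VEGFC, PGF, FLT1, ADM, EDN1, ANGPT1, ANGPTL4 and THBS1, which are 10 of 61496 features. All 10 were found once, and all 10 were among the 27514 features with enough counts to be tested. The RNA came from U251, an established human glioma cell line grown in DMEM with 10% FBS. There were 3 control libraries of untreated cells and 3 libraries of cells exposed for 2 h to Sev (sevoflurane), an inhaled anesthetic gas. The labels list Sev concentrations of 1.7%, 3.4% and 5.1% without tying one to a library, while the sequenced cells are described in the study as exposed to 5.1%. The study describes its quantitative data in general as coming from independent experiments, but no label ties the 3 libraries of a group to separate cultures, so the p-values measure the spread between these libraries, which may be technical.

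Glioma cells release factors that act on the endothelium of nearby vessels. The VEGF ligands bind receptor tyrosine kinases and neuropilins on endothelial cells, angiopoietin 1 stabilizes vessels through the receptor TEK, and thrombospondin 1 restrains vessel growth through CD36 and CD47. Adrenomedullin is a peptide that widens vessels and promotes their growth, whereas endothelin 1 is a strong vessel constrictor. Several of these genes, VEGFA, ADM, EDN1 and ANGPTL4 among them, are textbook targets of the hypoxia-inducible factors (HIF), and VEGFA can also be induced by the stress factor ATF4. U251 cells are the source of these transcripts in culture. No vessel was present.

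After Sev, EDN1, VEGFC, ADM, THBS1 and ANGPTL4 were higher and VEGFA and ANGPT1 were lower, whereas VEGFB, PGF and FLT1 were not called. By the quasi-likelihood test of edgeR, adjusted by Benjamini-Hochberg over every feature tested, 5 of the 10 transcripts rose and 2 fell at an adjusted p under 0.05. Among all tested features 22.1% were called higher and 21.5% lower, so calls were frequent throughout the transcriptome, and 2 of 10 lower is close to that background. Past the fold threshold (a log2 fold change over 1 in size with an unadjusted p under 0.05) there were 4 transcripts higher, EDN1, VEGFC, ADM and THBS1, against 11.4% of all tested features. None of the 10 was lower past it, against 12% of all tested features. With scaling by library size alone 2 were higher and 1 was lower past the fold threshold, and with limma on log2(FPKM + 1) 1 was higher. The median log2 fold change was 0.55 over the 10 and -0.0056 over all tested features, and it was 0.15 over the 10 with limma on log2(FPKM + 1) without a filter. In bulk RNA, fewer cells of a kind and less RNA per cell cannot be told apart.

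**Figure D1:**
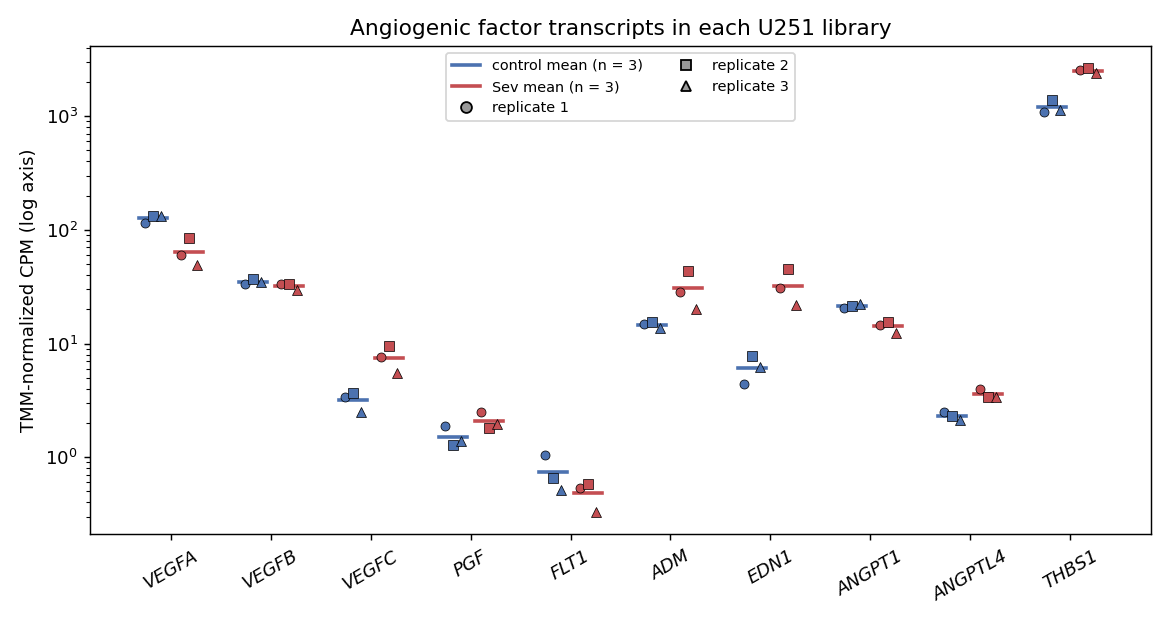
Level of each of the 10 transcripts in each library, in TMM-normalized CPM on a log axis. Points are libraries, shaped by replicate number, and bars are group means (n = 3, control blue, Sev red). EDN1 shows the widest gap between the groups, and the red points lie below the blue ones for VEGFA and ANGPT1.

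The VEGF ligands moved in different directions. VEGFA (ENSG00000112715, chr6:43770184-43786487, plus strand, GRCh38) encodes the main vascular growth factor of the family, which acts through the receptors FLT1 and KDR. Levels are given in CPM, counts scaled to library size after TMM normalization. They were 116, 133 and 133 CPM in control 1 to 3 and 59.9, 84.5 and 48.8 CPM in Sev 1 to 3. Every Sev library was below every control library. The mean fell from 127 ± 9.51 to 64.4 ± 18.2 CPM (SD, n = 3), a log2 fold change of -0.98 (SE 0.19, 95% interval -1.41 to -0.55, adjusted p = 0.00428 by edgeR's quasi-likelihood test), or 0.505 of the control level. Sev 2 was the least reduced, and without it the log2 fold change was -1.22, past the fold threshold (without control 1 it was -1.05).

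VEGFC (ENSG00000150630, chr4:176683538-176792727, minus strand), the ligand that drives lymphatic vessel growth, went the opposite way. It stood at 3.36, 3.68 and 2.51 CPM in the control libraries and at 7.67, 9.42 and 5.48 CPM in the Sev libraries. The groups did not overlap, and even the lowest Sev library was above the highest control library. The mean rose from 3.18 ± 0.605 to 7.52 ± 1.98 CPM (SD, n = 3), a log2 fold change of 1.24 (SE 0.24, 95% interval 0.68 to 1.80, adjusted p = 0.00482 in edgeR). With limma on log2(FPKM + 1) it was 0.65 (adjusted p = 0.00978), under the fold threshold but still called. The antisense gene ENSG00000248388 overlaps 22608 bases of VEGFC and had 0 to 7 counts a library, against 122 to 354 counts for VEGFC.

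VEGFB (ENSG00000173511, chr11:64234538-64238793, plus strand) binds FLT1 and is tied to the handling of fatty acids by endothelium. It had 33.5, 36.7 and 34.9 CPM in the control libraries and 33.7, 33.3 and 29.6 CPM in the Sev libraries. These ranges overlapped, and the log2 fold change was -0.12 (SE 0.093, 95% interval -0.34 to 0.095, adjusted p = 0.326 in edgeR). Scaled by library size alone it was -0.26 with an adjusted p of 0.0395, under a scaling that moved the median of all features by itself to -0.15.

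PGF (ENSG00000119630, chr14:74941834-74955784, minus strand), placental growth factor, is another ligand of FLT1. Its levels were 1.89, 1.29 and 1.38 CPM in the control libraries and 2.52, 1.81 and 1.97 CPM in the Sev libraries. Sev 2 lay below control 1, so the groups overlapped, and the log2 fold change of 0.47 (SE 0.24, 95% interval -0.082 to 1.01, adjusted p = 0.148 in edgeR) did not pass. FLT1 itself (ENSG00000102755, chr13:28300344-28495145, minus strand), the VEGF receptor that often acts as a decoy, was barely expressed. It had 44, 26 and 25 counts in the control libraries and 20, 22 and 13 counts in the Sev libraries. Control 1 was well above the rest and Sev 3 below them, while control 3 with 0.515 CPM lay under Sev 1 and Sev 2 with 0.531 and 0.586 CPM. The log2 fold change of -0.61 (SE 0.38, 95% interval -1.48 to 0.26, adjusted p = 0.226 in edgeR) leaves room for a fall or for a small rise. Counts per gene do not separate the soluble form of FLT1 from the full-length receptor.

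ANGPT1 (ENSG00000154188, chr8:107249482-107498055, minus strand) encodes angiopoietin 1, the vessel-stabilizing ligand. It stood at 20.5, 21.3 and 22.3 CPM in the control libraries and at 14.6, 15.5 and 12.4 CPM in the Sev libraries. All 3 Sev libraries were lower, and both groups were tight. The mean fell from 21.3 ± 0.922 to 14.2 ± 1.61 CPM (SD, n = 3), with a log2 fold change of -0.59 (SE 0.12, 95% interval -0.87 to -0.32, adjusted p = 0.00560 in edgeR).

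ANGPTL4 (ENSG00000167772, chr19:8363289-8374373, plus strand), an angiopoietin-like protein that inhibits lipoprotein lipase and alters vessel permeability, was low in all libraries. It had 2.51, 2.30 and 2.14 CPM in the control libraries and 4.01, 3.41 and 3.38 CPM in the Sev libraries. The groups did not overlap, with a log2 fold change of 0.64 (SE 0.17, 95% interval 0.24 to 1.03, adjusted p = 0.0183 in edgeR). This was the weakest of the 7 calls. It was lost without control 3 (0.58, adjusted p = 0.0701), without Sev 1 (0.55, adjusted p = 0.0702) and with scaling by library size alone (0.49, adjusted p = 0.0548).

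ADM (ENSG00000148926, chr11:10304680-10307397, plus strand) encodes adrenomedullin. Its levels were 14.7, 15.5 and 13.8 CPM in the control libraries and 28.5, 43.7 and 20.1 CPM in the Sev libraries. The control libraries were close together and the Sev libraries were spread, all of them above the controls. The mean rose from 14.7 ± 0.858 to 30.8 ± 12.0 CPM (SD, n = 3), a log2 fold change of 1.07 (SE 0.25, 95% interval 0.48 to 1.65, adjusted p = 0.0112 in edgeR). Without Sev 2 the log2 fold change was 0.73 with an adjusted p of 0.0132, so the call at an adjusted p under 0.05 was kept but the fold threshold was not passed.

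EDN1 (ENSG00000078401, chr6:12290363-12297194, plus strand), the precursor of endothelin 1, changed most among the 10. It stood at 4.37, 7.75 and 6.24 CPM in the control libraries and at 30.7, 44.8 and 21.6 CPM in the Sev libraries. The lowest Sev library held 856 counts and the highest control library 307 counts. The mean rose from 6.12 ± 1.69 to 32.4 ± 11.7 CPM (SD, n = 3), a 5.29-fold increase with a log2 fold change of 2.40 (SE 0.30, 95% interval 1.70 to 3.10, adjusted p = 7.75e-04 in edgeR). When each library was left out in turn, the log2 fold change ranged from 2.10 to 2.63.

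THBS1 (ENSG00000137801, chr15:39581079-39599466, plus strand), the vessel growth inhibitor thrombospondin 1, was by far the most abundant of the 10. It had 1092, 1396 and 1143 CPM in the control libraries and 2535, 2646 and 2378 CPM in the Sev libraries. The gap between the groups was wide beside the spread within each. The mean rose from 1210 ± 163 to 2520 ± 135 CPM (SD, n = 3), a log2 fold change of 1.06 (SE 0.12, 95% interval 0.79 to 1.32, adjusted p = 4.36e-04 in edgeR). With scaling by library size alone it was 0.92 and without control 1 it was 0.98, both under the fold threshold but still called. The sense-intronic THBS1-IT1 held 686 to 872 counts without Sev and 763 to 921 counts with it, and the antisense THBS1-AS1 and FSIP1 also overlap the gene with at most 742 and 213 counts. THBS1 itself held 46200 counts or more in every library. The strand setting of the counting was not given in the sources used here, so reads of overlapping genes may have been shared.

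**Figure D2:**
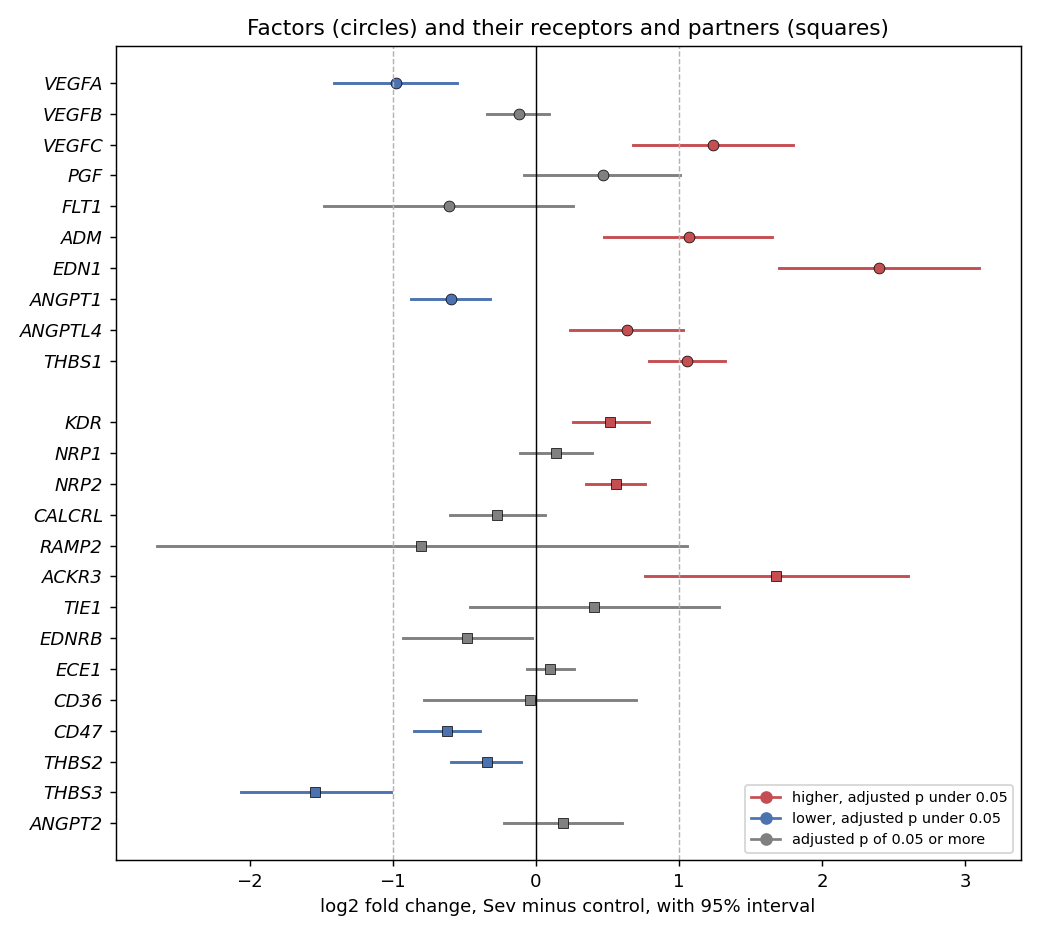
Log2 fold change (Sev minus control) of the 10 transcripts (circles) and of receptors, processing enzymes and related ligands (squares), with 95% intervals from edgeR's quasi-likelihood fit. Red marks higher and blue lower at an adjusted p under 0.05, grey marks no call, and dashed lines stand at a log2 fold change of 1 in either direction. EDN1 at 2.40 is the highest of the circles and VEGFA at -0.98 the lowest.

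Promoter sequence was compared among the transcripts that rose, to show what the letters before their start sites share. RefSeq windows on GRCh38.p14 were matched for 8 of the 10 genes, all but VEGFA and ANGPT1, so the comparison holds no transcript that fell. The 250 bases before the RefSeq start are printed 5′ to 3′ on the gene's strand for the 5 that rose, EDN1 (chr6:12290111-12290360, plus), ADM (chr11:10304823-10305072, plus), VEGFC (chr4:176792923-176793172, minus), THBS1 (chr15:39580829-39581078, plus) and ANGPTL4 (chr19:8363905-8364154, plus). For EDN1, RefSeq has 3 starts and the one nearest the GENCODE start was used. The ADM and ANGPTL4 windows lie inside the span of the annotated gene, whose most upstream start is 393 and 866 bases from the RefSeq start. Capitals mark TATAAA (the TATA box), ACGTG and GCGTG (the core letters of HIF binding elements) and TGACG (the core of CREB and ATF elements), each on either strand.
EDN1: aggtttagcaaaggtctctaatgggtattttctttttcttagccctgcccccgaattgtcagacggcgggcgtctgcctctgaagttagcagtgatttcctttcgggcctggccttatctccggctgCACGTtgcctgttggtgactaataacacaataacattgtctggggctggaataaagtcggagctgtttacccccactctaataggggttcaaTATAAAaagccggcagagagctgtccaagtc
ADM: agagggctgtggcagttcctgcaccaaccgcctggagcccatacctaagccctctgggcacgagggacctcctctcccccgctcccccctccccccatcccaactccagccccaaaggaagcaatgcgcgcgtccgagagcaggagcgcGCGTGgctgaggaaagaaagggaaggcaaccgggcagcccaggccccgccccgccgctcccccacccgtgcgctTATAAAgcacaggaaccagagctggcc
VEGFC: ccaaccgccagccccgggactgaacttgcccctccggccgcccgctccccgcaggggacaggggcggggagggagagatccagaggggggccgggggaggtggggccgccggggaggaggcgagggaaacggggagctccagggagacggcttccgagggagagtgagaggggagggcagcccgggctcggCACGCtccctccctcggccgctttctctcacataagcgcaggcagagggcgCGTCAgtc
THBS1: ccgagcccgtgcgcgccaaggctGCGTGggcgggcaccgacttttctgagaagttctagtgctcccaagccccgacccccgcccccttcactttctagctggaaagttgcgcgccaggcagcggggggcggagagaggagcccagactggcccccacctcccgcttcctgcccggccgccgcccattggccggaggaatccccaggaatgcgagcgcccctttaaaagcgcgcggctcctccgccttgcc
ANGPTL4: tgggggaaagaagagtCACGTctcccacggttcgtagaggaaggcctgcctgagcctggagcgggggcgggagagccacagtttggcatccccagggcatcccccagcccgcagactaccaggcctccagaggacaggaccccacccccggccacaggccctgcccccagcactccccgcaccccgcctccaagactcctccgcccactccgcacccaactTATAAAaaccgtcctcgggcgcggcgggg

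A TATAAA was present in the windows of EDN1 (first base at -31), ADM (-27), ANGPTL4 (-29) and FLT1 (-31), that is in 4 of the 8 windows, while 10.8% of 34943 RefSeq windows of the same length held one at any position. VEGFC and THBS1 had none in these 250 bases. An ACGTG was present in the windows of EDN1 and ANGPTL4, both on the reverse strand, against 18.5% of all windows. A GCGTG was present in 5 windows, those of ADM, VEGFC, THBS1, VEGFB and FLT1, against 32.2% of all windows. A TGACG was present in VEGFC, PGF and FLT1, against 21.2%. No window held the AP-1 element TGANTCA, the ATF4 composite letters TGATGNAA or a CArG box, which occur in 6.59%, 3.15% and 1.16% of all windows, and 7 of 8 held the GC box GGGCGG, which occurs in 42.5% and was left in lower case above. Only exact letters were searched, so near matches to the AP-1 element, such as the tgactaa in the EDN1 window, were not counted. One GC box of THBS1 overlaps its GCGTG by 1 base. These matches describe letters only, and each kind of match found in a transcript that rose, other than ACGTG, was also found in 1 or more that were not called.

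Levels can be compared between genes only per length, and the deposited FPKM values (counts scaled by gene length and library total) serve for that. On that scale, in control cells THBS1 led at an FPKM of 112 ± 13.1 (SD, n = 3), followed by VEGFB at 19.3 ± 0.487, VEGFA at 7.48 ± 0.424 and ADM at 5.33 ± 0.290. EDN1 (2.55 ± 0.657) and ANGPT1 (2.54 ± 0.0922) overlapped, as did VEGFC (1.03 ± 0.191) and ANGPTL4 (0.788 ± 0.0783), and PGF (0.215) and FLT1 (0.0490) came last. In Sev cells THBS1 (212 ± 4.40) and VEGFB (16.1 ± 0.805) still led. EDN1 moved from the fifth place to the third at 12.2 (8.45 to 16.4 over the 3 libraries), a range that overlapped both VEGFB above it and ADM (10.1 ± 3.60) below it. VEGFA moved from the third place to the fifth at 3.40 ± 0.852, and below it VEGFC (2.20 ± 0.511) stood above ANGPT1 (1.51 ± 0.127).

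The makeup of the pool of the 4 VEGF ligands among the 10 transcripts shifted too. VEGFD, a further ligand of the family that is not among the 10, was left out of the pool, with an FPKM of 0.311 in control and 0.272 in Sev libraries on average. VEGFA took 25.6%, 26.6% and 27.8% of the summed FPKM of VEGFA, VEGFB, VEGFC and PGF in the control libraries and 14.1%, 18.6% and 13.5% in the Sev libraries. VEGFC took 4.06%, 4.04% and 2.90% in the control libraries and 9.99%, 11.5% and 8.35% in the Sev libraries. For both, the groups did not overlap. The mean share of VEGFA changed from 26.7% ± 1.10 to 15.4% ± 2.79 and that of VEGFC from 3.67% ± 0.666 to 9.93% ± 1.55 (SD, n = 3), each with a two-sided exact permutation p of 0.10, the smallest that 3 against 3 libraries allow. VEGFB made up 68.9% ± 0.369 of the pool before and 73.5% ± 4.04 after Sev (exact permutation p = 0.20), and PGF 0.768% and 1.23% (exact permutation p = 0.20).

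These places depend on the length used, most of all for VEGFA. The deposited FPKM divides by a length close to the union of all annotated exons, which for VEGFA, with 32 annotated transcripts, is 14431 bases against 3535 for its longest coding transcript, a ratio of 4.08. For VEGFB the same ratio is 1.12. Per kilobase of the longest coding transcript, VEGFA made up 56.5% ± 1.48 of the pool in control and 38.9% ± 5.00 in Sev libraries, and VEGFB 39.8% ± 0.796 and 50.9% ± 5.19 (SD, n = 3). On that scale VEGFA was the leading VEGF ligand in every control library and VEGFB in every Sev library. Per kilobase of the principal transcript, which for VEGFA has 1199 bases, VEGFA led in every library, with 78.3% to 80.3% of the pool in control and 61.9% to 70.4% in Sev libraries. VEGFC made up 2.42% in control and 7.78% in Sev libraries per kilobase of the longest coding transcript, and 1.16% and 4.42% per kilobase of the principal transcript. For PGF the shares were 1.25% and 2.40%, and 0.596% and 1.38%. On all 3 scales the share of VEGFA was lower, and that of VEGFC higher, in each Sev library than in any control library.

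Other places also moved with the length used. Per kilobase of the longest coding transcript, EDN1 at 3.01 ± 0.832 CPM per kilobase lay below ANGPT1 at 4.90 ± 0.212 in control cells (SD, n = 3), without overlap. In Sev cells VEGFA (18.2 ± 5.16), ADM (16.3 ± 6.34) and EDN1 (15.9 ± 5.76) followed VEGFB (23.3 ± 1.66), each with a range that overlapped its neighbour. VEGFA thus stood below ADM and EDN1 in Sev cells on the deposited FPKM but not on this scale. VEGFC (3.65 ± 0.957) and ANGPT1 (3.25 ± 0.369) overlapped there. THBS1 came first and ANGPTL4, PGF and FLT1 came last on each scale in both groups.

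**Figure D3:**
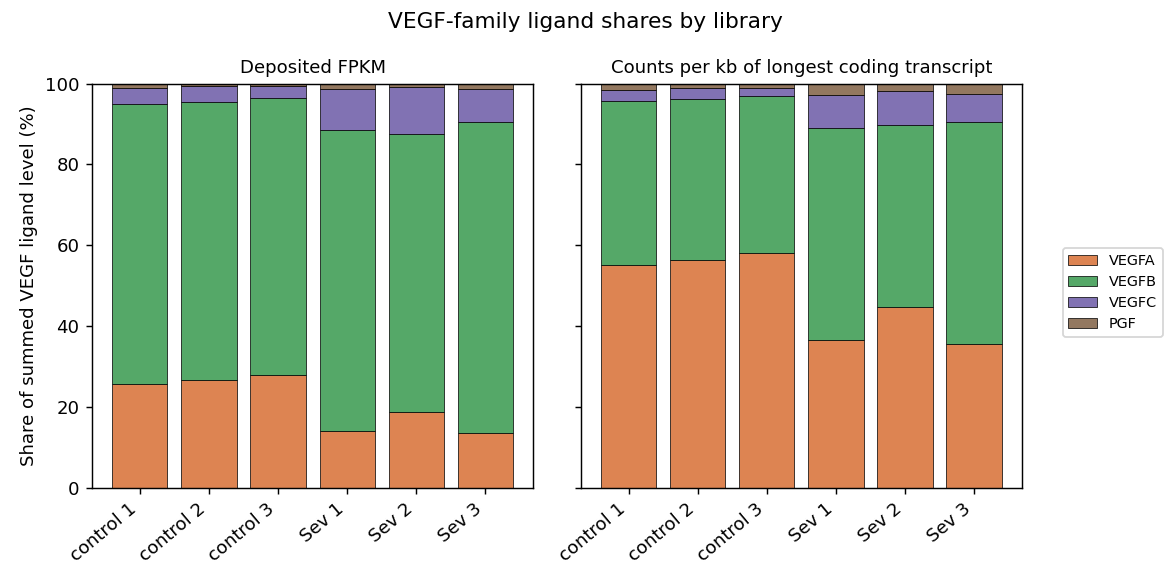
Share (%) of each VEGF ligand in the summed ligand level of each library, on the deposited FPKM (left) and on counts per kilobase of the longest coding transcript (right). The VEGFA segment is smaller and the VEGFC segment larger in the 3 Sev libraries on both scales, and the order of VEGFA and VEGFB in control cells differs between the panels.

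The Sev libraries differed among themselves in the same order for most of the 10 transcripts. Sev 2 was the highest Sev library for 7 of the 10 and Sev 3 the lowest for 9 of the 10. Over all tested features Sev 2 was the highest for 37.5% and Sev 3 the lowest for 35.4%. EDN1, as a multiple of its control mean, was 5.01 in Sev 1, 7.33 in Sev 2 and 3.53 in Sev 3, and ADM was 1.94, 2.98 and 1.37. THBS1 varied less, at 2.10, 2.19 and 1.97. VEGFA, which fell, was also highest in Sev 2 (0.663) and lowest in Sev 3 (0.383). Whether the libraries differed in Sev concentration is not given in the labels.

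Calls among the receptors and partners of these ligands were about as frequent as among all features. Of 29 genes listed, 23 could be tested, of which 6 rose and 4 fell, beside 22.1% higher and 21.5% lower of all tested features, with a median log2 fold change of 0.10 that turned to -0.039 with scaling by library size alone. With 10 counts required in every library, 3 rose. KDR, the main signaling receptor of VEGFA, was expressed in these glioma cells at 30.7, 33.9 and 32.2 CPM in the control libraries and at 44.2, 53.7 and 41.3 CPM in the Sev libraries. It thus rose while VEGFA fell (log2 fold change 0.52, SE 0.12, adjusted p = 0.00844 in edgeR). NRP2, a coreceptor for VEGFC, rose from 769 ± 3.50 to 1133 ± 98.3 CPM (SD, n = 3) with a log2 fold change of 0.56 (adjusted p = 0.00202 in edgeR), in the same direction as VEGFC. NRP1, the coreceptor of VEGFA, had a log2 fold change of 0.14 (adjusted p = 0.331 in edgeR), or -0.0014 with scaling by library size alone. FLT4, the main receptor of VEGFC, had 0 to 5 counts a library and was not tested.

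For adrenomedullin, the receptor CALCRL needs a RAMP protein to bind its ligands. CALCRL had 35.4 ± 3.17 CPM in control and 29.4 ± 5.24 CPM in Sev libraries (SD, n = 3), with a log2 fold change of -0.27 (adjusted p = 0.169 in edgeR). With scaling by library size alone it was -0.42 with an adjusted p of 0.0381. RAMP2, its usual partner for adrenomedullin, was scarce at 20, 12 and 13 counts in the control libraries and 7, 0 and 16 counts in the Sev libraries. RAMP3 had 0 to 4 counts a library. RAMP1, the partner that makes CALCRL a receptor for CGRP, had 3, 0 and 6 counts in the control libraries and 21, 19 and 11 in the Sev libraries and was called higher (adjusted p = 0.0171 in edgeR), a call lost without control 1 (adjusted p = 0.0620) or Sev 1 (adjusted p = 0.0631). ACKR3, which can take up adrenomedullin without signaling, rose from 0.794 ± 0.515 to 2.53 ± 0.0888 CPM (log2 fold change 1.68, adjusted p = 0.0111 in edgeR). ADM2, a relative of ADM that uses the same receptors, had 0 counts in all 3 control libraries and 70, 49 and 105 counts in the Sev libraries. That is at least 27.9-fold higher, against a floor of 3 counts per library that covers counting error only.

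On the endothelin side, EDNRB, the only endothelin receptor with many counts, had 66.5 ± 13.2 CPM in control and 47.8 ± 10.6 CPM in Sev libraries (SD, n = 3). Its log2 fold change of -0.48 had an adjusted p of 0.0805 in edgeR and the groups overlapped. It was called lower with scaling by library size alone (-0.63, adjusted p = 0.0275), in limma on log2(FPKM + 1) and log2(FPKM + 0.1) (-0.55 and -0.62, adjusted p = 0.0373 and 0.0398), without control 2 (-0.63, adjusted p = 0.0358) and without Sev 2 (-0.65, adjusted p = 0.0315). EDNRA had 3 to 17 counts a library. ECE1, the enzyme that releases active endothelin from its precursor, stood at 196 ± 5.48 and 211 ± 9.42 CPM (log2 fold change 0.10, adjusted p = 0.275 in edgeR, or -0.039 with scaling by library size alone). EDN2 was called higher on few counts, 7, 3 and 3 in the control libraries and 12, 13 and 34 in the Sev libraries (adjusted p = 0.0158 in edgeR). That call was lost without control 2, control 3 or Sev 3 (adjusted p = 0.0551, 0.0634 and 0.0553). EDN3 had 0 counts in every library.

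THBS1 rose while 3 of its relatives or receptors fell. THBS3, a thrombospondin of a different subgroup, fell from 113 ± 32.4 to 38.9 ± 8.33 CPM (SD, n = 3), with a log2 fold change of -1.54 (adjusted p = 0.00150 in edgeR). THBS2, the closest relative of THBS1 and also a vessel growth inhibitor, fell by 0.34 on the log2 scale (adjusted p = 0.0309 in edgeR), a call lost in 4 of 6 fits that left out a library (adjusted p from 0.0780 to 0.106), whereas THBS4 had a log2 fold change of 0.26 (adjusted p = 0.313 in edgeR). CD47 fell from 60.5 ± 6.27 to 39.4 ± 1.92 CPM (log2 fold change -0.62, adjusted p = 0.00218 in edgeR), and CD36 had 18 to 33 counts a library. Among the angiopoietins, ANGPT2, which can oppose ANGPT1, had a log2 fold change of 0.19 (adjusted p = 0.412 in edgeR). The receptor TEK had 4 to 18 counts and was not tested.

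The 10 transcripts were set beside other lists, for which the same shares of all tested features, 22.1% higher and 21.5% lower, are the background. Of 25 other angiogenic factors tested, 11 rose and 1 fell, with a median log2 fold change of 0.12 (-0.034 with scaling by library size alone). The median was 0.27 without control 3, 0.29 without Sev 1 and 0.35 without Sev 3, and the number that fell was 3 with scaling by library size alone and 2 without Sev 1 or Sev 2. CXCL8, a chemokine that also drives vessel growth, rose by 3.63 and CCN2, a matrix-associated growth factor, by 1.78 on the log2 scale, while TGFA fell by 0.44 (adjusted p = 7.60e-05, 1.12e-04 and 0.00920 in edgeR). Of 11 angiogenesis inhibitors other than THBS1, 1 was called, ADAMTS1, a protease that binds VEGFA, which rose from 23.5 ± 0.309 to 110 ± 20.5 CPM (SD, n = 3, adjusted p = 7.05e-05 in edgeR). The inhibitors' median was 0.11, or -0.051 with scaling by library size alone, when 3 of them were called lower. Without control 1 or control 2 there were 2 called higher, and without Sev 2 there was 1 called lower. The inhibitors' median ran from -0.12 to 0.24 when each library was left out.

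HIF-responsive genes outside the 10 mostly did not rise. Of 25 tested, 2 rose and 11 fell, against 22.1% and 21.5% of all tested features, with a median log2 fold change of -0.33 (-0.22 without Sev 3). The glucose transporter SLC2A3 fell by 1.41 and INSIG2, a brake on sterol synthesis, by 1.50 on the log2 scale, whereas BHLHE40 (0.57) and the glucose transporter SLC2A1 (0.46) rose. The SLC2A1 call was lost without control 1 (0.38, adjusted p = 0.0745 in edgeR) and without control 3 (0.45, adjusted p = 0.0679 in edgeR). Among the 10, the HIF targets VEGFA on the one hand and ADM, EDN1 and ANGPTL4 on the other moved in opposite directions. Of 20 ATF4-responsive genes, 13 rose and 2 fell, against the same background, with a median of 0.60 (0.46 with scaling by library size alone). CHAC1, which degrades glutathione, rose by 1.97 and ATF3 by 0.71, while DDIT4, a brake on mTORC1 that also responds to HIF, fell by 3.06 and VLDLR fell by 0.51 on the log2 scale. The VLDLR call was lost without control 3 or Sev 1 (adjusted p = 0.0569 and 0.0625 in edgeR).

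**Figure D4:**
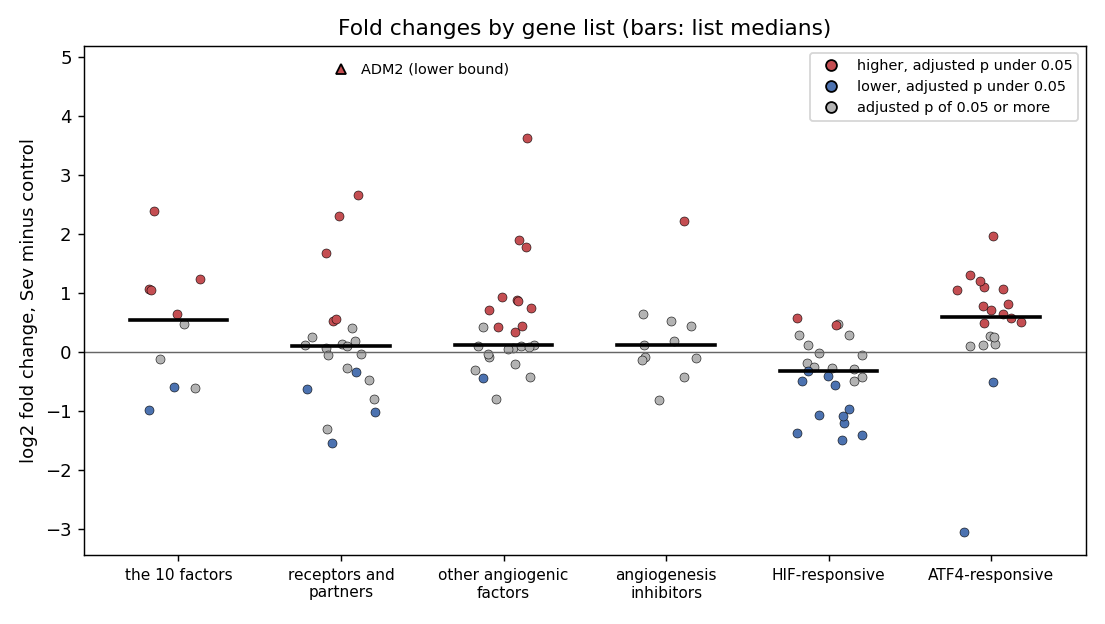
Log2 fold change (Sev minus control) of each tested gene in 6 lists. Points are genes, coloured by their call at an adjusted p under 0.05 in edgeR, black bars are list medians, and ADM2, with no control counts, is drawn at its lower bound. The median is 0.55 for the 10 transcripts, -0.33 for the HIF-responsive genes and 0.60 for the ATF4-responsive genes.

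Library totals were 38624292 to 46318311 counts. The groups separated on the first principal component, which held 70.3% of the variance. Glial and U251 markers summed to 7741 to 8669 CPM in control and 8785 to 9268 CPM in Sev libraries, with VIM and NES high, AQP4 at no more than 17 counts, and 1 called higher (CD44) and 3 lower (SOX2 and OLIG2 among them) of 9 tested. For this and the other marker lists, the background was 22.1% higher and 21.5% lower of all tested features. Endothelial markers, which bear on transcripts such as KDR and EDN1, summed to 19.7 to 23.6 CPM in control and 23.1 to 29.7 CPM in Sev libraries, with EMCN at 0 in every library and ERG at 0 to 4 counts. Others were detected, with 277 to 439 counts a library for EGFL7, 132 to 220 for CDH5, 98 to 198 for VWF and 75 to 155 for ESAM. Of 8 endothelial markers tested, 3 rose and 5 were not called. Those that rose were CLDN5 (1.14, a call lost without control 2 or control 3, with adjusted p of 0.0635 and 0.0663 in edgeR), PECAM1 (0.92, on 21 to 55 counts, called in 1 of 6 fits with a library left out) and ROBO4 (1.22, on 13 to 80 counts, adjusted p = 0.0453 in edgeR). Immune markers summed to 3.53 to 6.03 CPM in control and 8.56 to 10.6 CPM in Sev libraries, with AIF1 at 0. Of 2 immune markers tested, CD14 was higher (1.89) and CD68, at 88 to 198 counts a library, was not called. Neuronal markers summed to 77.6 to 87.8 and 76.4 to 82.4 CPM, and 1 of 4 rose (SYT1, 0.55), beside 22.1% of all tested features. The part of these markers in the results above was not tested.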

How the data were processed

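Total RNA was depleted of ribosomal RNA, and strand-specific libraries were sequenced in paired ends. The authors deposited counts per gene, without normalization, and FPKM values, which are these counts scaled by gene length and library total. The submitters' processing notes name bcl2fastq 2.19, featureCounts and the genome build hg18, without a role or order. The aligner, the annotation release and the strand setting are not given in the sources used here. Symbols were joined for 60295 features, and positions were taken from GENCODE 29 on GRCh38 by identifier, not from the files. The FPKM lengths implied by the counts were nearly constant across libraries, apart from rounding of low values.

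Counts were fitted in R 4.3.3 with edgeR 4.0.16 (filterByExpr, TMM, glmQLFit and glmQLFTest, no covariate) on all 61496 features, of which 27514 were tested, with Benjamini-Hochberg adjustment. TMM factors were 1.03 to 1.08 in control and 0.918 to 0.988 in Sev libraries. CPM values are TMM-normalized, without a prior count. Alternatives were DESeq2 1.42.0 (size factors alone, or its Wald test), library size only, other filters (none, or 10 counts throughout), a block for the replicate number, fits that left out 1 library, and limma 3.58.1 on log2 FPKM with a pseudocount of 1 or 0.1, restricted to features that reached 0.5 FPKM in 3 libraries or, with a pseudocount of 1, unfiltered. Shares and levels per transcript length were added after the data were seen. Fits were tested on simulated data. Precision is limited by the 3 libraries a group, and by depth for genes with few counts. The intervals of log2 fold changes come from the edgeR fit, and the floor of 3 counts covers counting error only. Exact permutation tests used scipy 1.17.1 in Python 3.11.15.

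The 10 genes and all lists were chosen with earlier results of these data known. Named genes were the 10, their receptors and partners, genes overlapping them, and at most 2 a direction from each other list, by smallest p among those called. Other genes were named after their values were seen, as markers listed at or near 0, as detected endothelial and immune markers, or as abundant glial markers (VIM, NES). The result for 1 of the receptors and partners is not reported here.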

Additional observations from a re-analysis of the deposited data

How the results depend on the processing

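VEGFA, VEGFC, EDN1, THBS1 and ANGPT1 kept their direction and call in all 9 alternative fits and in all 6 fits with 1 library left out. ADM lost its call only in limma on log2(FPKM + 1) without a filter (0.76, adjusted p = 0.0588), and ANGPTL4 in 4 of 9 alternatives and 2 of 6 fits with a library left out. VEGFB was called lower in 4 of 9, those scaled by library size or FPKM (-0.25 or -0.26, adjusted p from 0.0167 to 0.0395), in which the median of all features was -0.15 (library size), -0.11 (FPKM + 1), -0.17 (FPKM + 0.1) and -0.0089 (FPKM + 1, no filter). The FPKM filter dropped PGF and FLT1, so 8 of the 10 were tested there. Deviations from the group mean over 13156 genes correlated by -0.103, -0.0055 and 0.096 between libraries of the same replicate number. Between libraries of different numbers the correlations ran from -0.192 to 0.179. These values do not settle whether the libraries were paired. With the replicate block, 1 of the 10 transcripts (VEGFA, -1.02) was lower past the fold threshold, and no call at an adjusted p under 0.05 among the 10 changed, while RAMP1 lost its call (adjusted p = 0.0515).

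The transcripts higher at an adjusted p under 0.05 numbered 3 with log2(FPKM + 1) unfiltered, and 4 to 5 with a library left out. Those higher past the fold threshold numbered 2 with library size only, 1 with log2(FPKM + 1), 2 with log2(FPKM + 0.1) and 1 unfiltered, and 3 to 4 with a library left out. Those lower past it numbered 1 with library size only and 1 with log2(FPKM + 0.1), and 0 to 1 with a library left out (1 without control 1 and without Sev 2). Among all features, 3676 and 3623 were higher at an adjusted p under 0.05 with log2(FPKM + 1) and log2(FPKM + 0.1), of 22370 tested in each. Past the fold threshold, 1691 were higher and 2148 lower of 22377 tested with 10 counts in every library. With log2(FPKM + 1) they were 579 and 690 of 22370 tested, and unfiltered 579 and 691 of 47106 tested. With log2(FPKM + 0.1), 1476 of 22370 tested were higher. A pseudocount lowers the fold of low features by construction; the other causes were not tested.

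Some list medians near 0 changed sign. With library size only, log2(FPKM + 1) and log2(FPKM + 0.1), they were -0.039, -0.038 and -0.04 for receptors and partners, -0.034, -0.032 and -0.039 for other angiogenic factors (-0.017 unfiltered), and -0.051, -0.029 and -0.086 for inhibitors. With a library left out the inhibitors' median ran from -0.12 to 0.24, and was below 0 without control 2 (-0.079), control 3 (-0.12) or Sev 1 (-0.063). NRP1 turned to -0.0014 with library size only, and ECE1 to -0.039 there and to -0.038, -0.04 and -0.038 in the FPKM fits. The share of VEGFA in the VEGF ligands was 56.5% in control and 38.9% in Sev cells per kilobase of longest coding transcript, and 79.3% and 65.0% per kilobase of principal transcript. The share of VEGFB was 39.8% and 50.9%, and 19.0% and 29.2%. Depth limits FLT1, RAMP1, RAMP2 and EDN2, each with at most 44 counts in any library. The median over the 10 transcripts was 0.41 with library size only, 0.44 with log2(FPKM + 1) and 0.15 unfiltered. Receptors and partners called higher numbered 3 with 10 counts in every library and in both filtered FPKM fits. Other angiogenic factors called lower numbered 3 with library size only and in both filtered FPKM fits, and those called higher 6 unfiltered. Inhibitors called lower numbered 3 with library size only and log2(FPKM + 1), 2 with log2(FPKM + 0.1) and 1 unfiltered, and those called higher 2 with DESeq2's Wald test and the replicate block. HIF-responsive genes called higher numbered 1 in the FPKM fits. Their median was -0.47 with library size only, -0.45 with log2(FPKM + 1) and -0.50 with log2(FPKM + 0.1). In the same fits the median of the ATF4-responsive genes was 0.46, 0.40 and 0.46.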
